A study of Sus scrofa with 226 samples.

Results

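The genes described here are the extracellular matrix and integrin genes of pig sensory neurons. They are the collagen, laminin, thrombospondin and integrin genes whose identifiers in the deposited table matched a symbol, with cartilage oligomeric matrix protein (COMP) and fibronectin (FN1). Of 30420 gene identifiers, 14867 matched a gene symbol, and 82 of these symbols belong to the set. They were chosen by name, with earlier results of these data known. The name rule also took in ITGB1BP1, ITGB1BP2 and ITGBL1, which carry integrin names but are no integrin chains. The 67 with at least 1 CPM (counts scaled to 1000000 per cell) in at least 10% of cells are described in detail. The neurons came from dorsal root ganglia, the clusters of sensory cell bodies beside the spinal cord, of wild-type pigs (Sus scrofa). They were dissociated, kept in culture, recorded with a patch pipette and then harvested whole with a wider pipette, and each cell was made into its own full-length cDNA library (Smart-Seq2). The cells came from 10 animals, and one of the study's stated aims was to find molecular markers of nociceptors that do not respond to mechanical stimuli.

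All cells shared the wild-type genotype and the tissue, and they differed in the age of the animal and in the days spent in culture. At 2 days in culture 78 cells from 9 animals were taken, at 3 days 24 cells from 3 animals, and the others, from 10 animals, at 1 day. The animals were 11 (38 cells), 12 (11 cells), 14 (35 cells), 15 (56 cells), 17 (34 cells), 18 (46 cells) and 20 (6 cells) weeks old. For the main comparison the cells were split by OSMR, the receptor for oncostatin M: 66 cells had at least 50 CPM of OSMR and 160 had less. Among the 160 OSMR-low cells, 19 had less than 50 CPM of ADCYAP1, which encodes the neuropeptide PACAP, and the others at least that. The OSMR cut is a range and not a cell type, and 27 cells lay between 25 and 100 CPM.

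Each cell held between 109726 and 5506278 estimated counts, with a median of 740524.5, and between 3067 and 20588 detected genes. The neuronal transcripts SNAP25, UCHL1 and STMN2 were present at 1 CPM or more in 100% of cells, and RBFOX3, another neuronal marker, in 28.8%. Median genes per cell were 14065 at day 1, 13384 at day 2 and 10802 at day 3. Transcripts of other cell types were also measured: APOE, which satellite glia express, was found in 88.5% of cells and the macrophage gene C1QA in 39.4%. None of the measured markers of 7 such cell types was at 0 in all cells of either OSMR class. Bulk values below are sums over the cells of one animal, in which fewer positive cells and less RNA per cell cannot be told apart.

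Extracellular matrix surrounds cell bodies and axons in the ganglion. Collagens form fibrils and sheets, laminins assemble from an alpha, a beta and a gamma chain into basement membranes, and fibronectin and thrombospondins link matrix to cells. Integrins are the main cell-surface receptors for these proteins. Each is a pair of an alpha and a beta chain, and in sensory neurons integrins are known for their part in neurite growth and in nociceptor sensitisation.

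Detection differed widely within the set. A cell expressed a median of 26 of the 82 genes at 1 CPM or more, with a range from 2 to 57. Of the 67 described genes, 17 were found in at least 50% of cells and 25 in fewer than 25%. At the edge of the rule, COL4A3 with 23 cells (10.2%), LAMA3 with 24 (10.6%) and COL23A1 with 28 (12.4%) were just inside, and COL19A1 with 21 (9.29%), COL6A5 with 18 (7.96%) and COL13A1 with 14 (6.19%) just outside. The other genes below the rule were COL2A1, COL6A1, COL6A2, COL8A2, COL9A1, COL10A1, COL11A2, ITGA11, ITGB1BP2, ITGB7, LAMB3 and LAMC3.

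Several integrin chains were found in most cells. The chance of detecting a gene also depends on its transcript length, so shares of different genes are not levels. ITGB1, the beta chain shared by most matrix integrins, was present in 99.1% of cells, and ITGAV, the alpha chain of the vitronectin and fibronectin receptors, in 90.3%. ITGA10, a collagen-binding chain, was found in 84.1%, ITGA3 in 69.5% and ITGA6 in 54.4%, the last a laminin-binding chain. ITGA5, the classical fibronectin receptor chain, was found in 14.6%. Detection of paired chains in the same cell is given as a description, since chains found in most cells meet often by their shares alone. ITGAV occurred with ITGB1 in 89.8% of all cells, with ITGB3 in 53.1%, with ITGB6 in 48.2%, with ITGB8 in 36.3% and with ITGB5 in 18.6%. The pair ITGA6 and ITGB4, which forms the laminin receptor of hemidesmosomes, occurred together in 32 of the 66 OSMR-high cells (48.5%) and 35 of the 160 OSMR-low cells (21.9%).

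Among matrix genes, the fibril-associated chain COL21A1 (82.3% of cells), the laminin chains LAMB4 (75.2%) and LAMC1 (72.6%) and the fibril-associated chain COL12A1 (59.7%) were found in most cells. An alpha chain, LAMB1 or LAMB2, and LAMC1, the 3 parts of a laminin, occurred together in 88 cells (38.9%). The combination LAMA4, LAMB1 and LAMC1 was found in 66 cells, 29 of the 66 OSMR-high cells (43.9%) and 37 of the 160 OSMR-low cells (23.1%). Fibril-forming chains known from fibroblasts were less common, with COL1A2 in 34.1%, COL3A1 in 23.5% and COL1A1 in 15.9% of cells. In the 57 cells (25%) with the highest summed fibroblast markers, COL3A1 was detected in 43.9%, against 16.6% of the other cells. The part of other cells' RNA in these shares was not tested.

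The share of cells with a gene was higher in the OSMR-high class for 54 of the 67 genes. The median share over the 67 genes was 36.4% in OSMR-high and 28.1% in OSMR-low cells, and over all 21284 genes found in at least 10% of cells it was 60.6% and 55%. After each cell was thinned to 300000 reads, which kept 190 cells, 59 of them OSMR-high, the medians were 28.8% and 26% and 41 of the 67 genes had the higher share in OSMR-high cells.

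**Figure D1:**
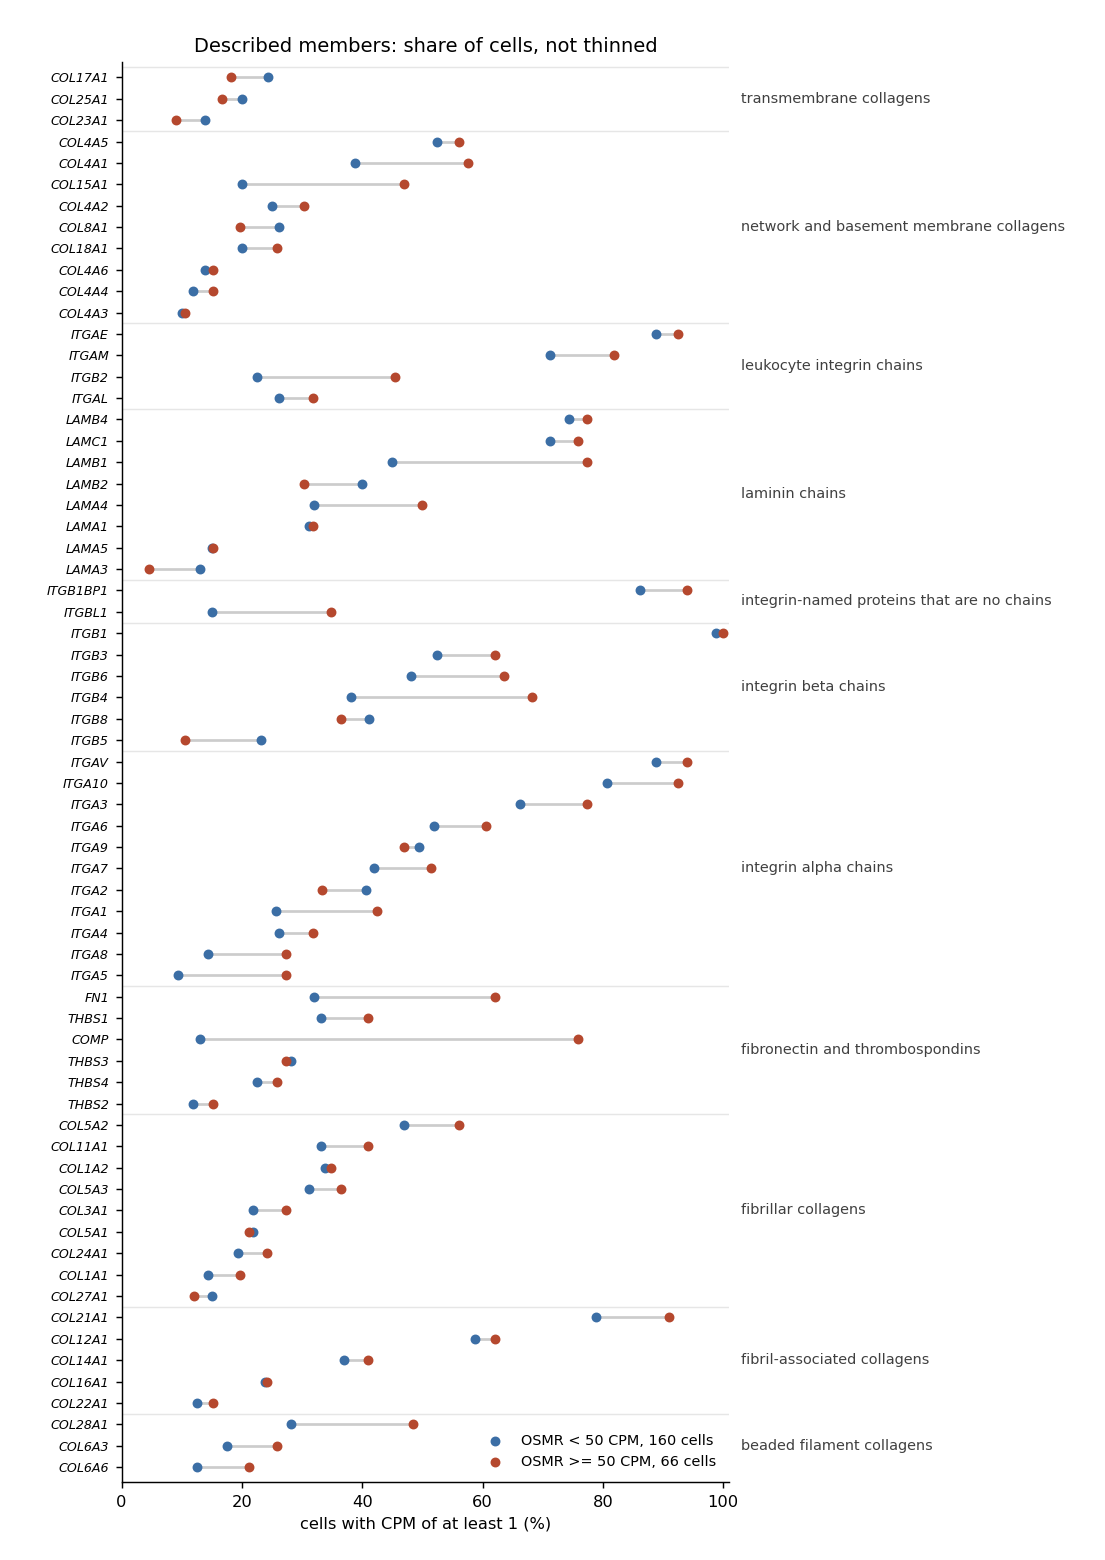
Share of cells with at least 1 CPM (x axis, percent) of each gene shown, grouped by role, in the 66 OSMR-high cells (red) and the 160 OSMR-low cells (blue), not thinned for depth. COMP has the widest gap, 75.8% against 13.1%, while ITGB1 is near 100% in both.

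To compare the OSMR classes over animals, counts were summed per animal and class and tested in edgeR by quasi-likelihood, blocked on the animal, for the 8 animals with at least 2 cells of each class. Animals 3 and 8 had 1 OSMR-high cell each and did not enter. Of 52 matrix and integrin genes tested, 3 were higher (COMP, LAMB1, ITGAV) and 2 lower (ITGAE, ITGB3) in OSMR-high cells at an adjusted p under 0.05. That is 9.62% of the genes tested. Over all 18121 genes tested, 6.30% passed, 3.10% as higher and 3.20% as lower. The median log2 fold change was -0.06 over the 52 genes and -0.04 over all genes. Collagens gave no call among 18 tested chains, and laminins 1 among 7. Of 5 tested endothelial markers 2 were higher in OSMR-high cells, PECAM1 (1.57, edgeR adjusted p = 0.017) and CLDN5 (2.46, 0.0284). TEK (1.32, 0.126), FLT1 (0.46, 0.65) and KDR, with the other sign (-1.40, 0.479), did not pass. CLDN5 was found in 10.2% of cells, at up to 2912 CPM. The summed endothelial markers had medians of 27 CPM (8.3 to 544.7) in OSMR-high and 12.3 CPM (8.43 to 65.1) in OSMR-low cells. Their part in the differences below was not tested.

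COMP, a secreted thrombospondin that binds collagens and is best known from cartilage and tendon, differed most. In the OSMR-high sums it ranged from 15.5 to 99.5 CPM with a median of 55.6. In the OSMR-low sums it ranged from 0.204 to 52 CPM with a median of 0.996. The classes overlapped through animals 1 and 10, whose OSMR-low sums held 52 and 20.6 CPM, and the other 6 OSMR-low sums were at or below 2.28 CPM. COMP was higher in the OSMR-high cells of 7 of 8 animals, and in animal 1 it was lower, 21.7 against 52 CPM. This gave a log2 fold change of 4.85 ± 0.99 (SE), a 28.8-fold difference, with an edgeR adjusted p of 0.00671. A single cell with 258 CPM supplied 97.7% of COMP in the OSMR-low sum of animal 1, and one with 220 CPM supplied 83.9% in that of animal 10. COMP was found in 63.2% of the 57 cells with the most Schwann cell marker RNA and in 20.7% of the others, and the summed Schwann markers ranged from 836.5 to 1303 CPM in the OSMR-high cells of 8 animals and from 409.4 to 897.6 CPM in the OSMR-low cells of 10. Of the 4 Schwann genes tested, PMP22 was higher (1.10, edgeR adjusted p = 0.000253) and 3 did not pass. Their part in the COMP difference was not tested.

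Cell by cell, 50 of 66 OSMR-high cells (75.8%) and 21 of 160 OSMR-low cells (13.1%) carried COMP at 1 CPM or more, and 74.6% and 12.2% after thinning. The median level was 32.5 CPM in OSMR-high cells and 0 in OSMR-low cells. All 10 animals had OSMR-high cells with COMP. Within the OSMR-low class, COMP was found in 12.1% of the ADCYAP1-high cells and in 4 of the 19 cells low in both (21.1%). The 16 OSMR-high cells without COMP had a median OSMR level of 137.6 CPM, the 50 with COMP one of 333 CPM, and their median detected genes were 11084 and 14459.

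**Figure D2:**
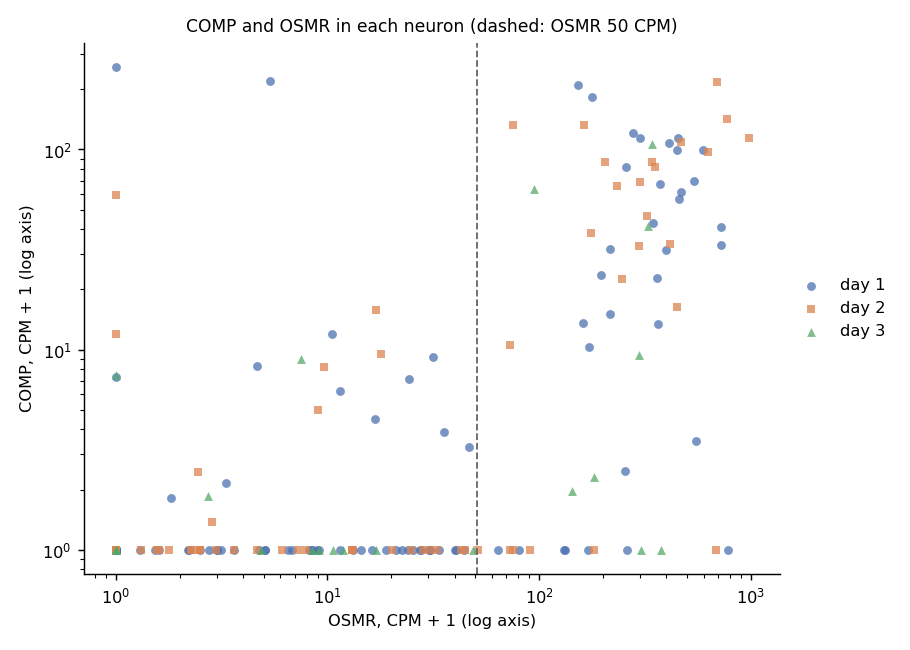
COMP against OSMR in each neuron (both axes CPM + 1, log scale), with the day in culture as colour and shape and the 50 CPM cut of OSMR as a dashed line. Cells with COMP gather to the right of the line, 50 of 66, and 21 of the 160 cells to its left carry it.

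The same cells had been recorded, and 2 of the recorded values were looked at. Spearman's rho between COMP and membrane capacitance, a measure of cell size, was positive within each of the 10 animals, with a mean of 0.50 ± 0.14 (SD over animals). With the recorded 50 Hz value, as the deposited cell table names it, rho was negative within each of the 10 animals, with a mean of -0.51 ± 0.18. Within OSMR-low cells alone the means were 0.23 ± 0.22 and -0.24 ± 0.29 over 8 animals. LAMB1 had means of 0.19 ± 0.20 with capacitance and -0.25 ± 0.16 with the 50 Hz value over all cells. In OSMR-low cells the LAMB1 means were 0.03 ± 0.33 and -0.03 ± 0.29. Median capacitance was 112.8 in OSMR-high cells with COMP and 68.6 in those without it. It was 82.2 in the 21 OSMR-low cells with COMP and 49.1 in those without it, in the table's unit, which is not stated there. These are descriptions over cells that share animals and differ in depth, and no test was made.

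LAMB1, the beta-1 chain of the laminins, was the matrix gene with the next largest called difference. The OSMR-high sums held 14.1 to 42 CPM (median 23.6) and the OSMR-low sums 1.97 to 14.7 CPM (median 10.2). The ranges met only at their edges, and LAMB1 was higher in OSMR-high cells in 8 of 8 animals. On the log2 scale the difference was 1.53 ± 0.41, with an edgeR adjusted p of 0.0345. By cell, 77.3% of OSMR-high and 45% of OSMR-low cells had LAMB1. No other laminin chain passed in edgeR. LAMB2 stood at -1.35 ± 0.56, LAMA4 at 0.61 ± 0.52 and LAMC1 at -0.09 ± 0.29 on the log2 scale. DESeq2 called LAMB2 lower. In the 57 cells with the most Schwann cell marker RNA LAMB1 was found in 80.7%, against 45.6% of the rest. Without the 25% of cells with the most non-neuronal marker RNA, the LAMB1 difference was 1.09 with an edgeR adjusted p of 0.455, and COMP stayed called at 4.34 with 0.0464. That marker sum, used here and below, includes PMP22, with cell medians of 940.7 CPM in OSMR-high and 470 CPM in OSMR-low cells. It also includes the fibroblast gene DCN, with medians of 19.4 and 0 CPM. The cut may therefore fall unevenly on the classes, so it does not isolate the part of other cells' RNA.

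ITGAV, which pairs with several beta chains to bind matrix proteins carrying the RGD motif, was higher in OSMR-high cells. The sums ranged from 100.2 to 346.0 CPM (median 238.4) in OSMR-high and from 47.7 to 189.3 CPM (median 147.7) in OSMR-low cells. The ranges overlapped, and 7 of 8 animals had the higher value in OSMR-high cells, animal 6 being the exception with 115.5 against 128.6 CPM. The fitted log2 difference was 0.74 ± 0.19 (edgeR adjusted p = 0.0304), and with OSMR-high set at 10 CPM it was 0.15 (0.90). Its share of cells was near its ceiling in both classes, 93.9% and 88.8%.

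Of the beta chains that pair with ITGAV, ITGB3 passed in edgeR, as lower in OSMR-high cells. ITGB3, known as part of the vitronectin receptor, ranged from 0.611 to 11 CPM (median 2.92) in OSMR-high and from 4.01 to 30.2 CPM (median 7.95) in OSMR-low sums. It was lower in OSMR-high cells in all 8 animals, although the ranges overlapped. ITGB3 stood at -1.23 ± 0.32 on the log2 scale (edgeR adjusted p = 0.0285). The share of cells with ITGB3 did not go the same way, at 62.1% of OSMR-high and 52.5% of OSMR-low cells, and 45.8% and 48.1% after thinning. By limma on means of cells ITGB3 stood at -0.29 (adjusted p = 0.585). ITGB5, which also pairs with ITGAV, stood at -2.95 ± 1.01 (adjusted p = 0.108), ITGB6 at 0.44 ± 0.36 (0.603), ITGB8 at -0.85 ± 0.67 (0.583) and ITGB1 at -0.03 ± 0.15 (0.949), all from the same edgeR fit. ITGB5 was called lower by DESeq2 and in edgeR with no filter on low counts.

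ITGAE, the alpha chain known from T cells of epithelia, where it binds E-cadherin, was found in 89.8% of these neurons. It ranged from 27 to 56 CPM (median 42.3) in OSMR-high and from 45.6 to 161.2 CPM (median 63.3) in OSMR-low sums. Each of the 8 animals had the lower value in OSMR-high cells, and the ranges overlapped. The log2 fold change was -0.74 ± 0.19 (edgeR adjusted p = 0.0277). None of the 3 tested T cell genes passed in this comparison, their median log2 fold change was -0.33, and the summed T cell markers had a median of 9.29 CPM in OSMR-high and 10.5 CPM in OSMR-low sums. The part of T cell RNA in the difference was not tested. ITGB7, the beta chain that pairs with ITGAE in T cells, was found at 1 CPM or more in 0.442% of cells.

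**Figure D3:**
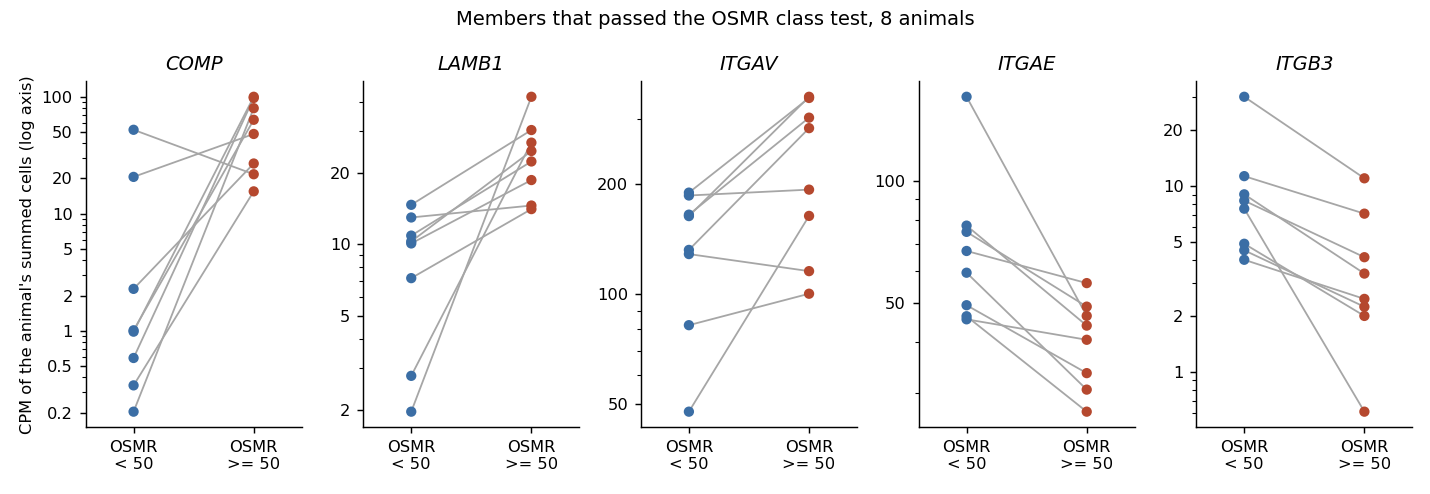
CPM of each animal's summed cells (log axis, one scale per panel) for the 5 genes that passed the OSMR class test, OSMR-low in blue and OSMR-high in red, with a line joining the 2 classes of an animal (8 animals). COMP is higher in OSMR-high cells except in animal 1, and ITGAE and ITGB3 are lower in OSMR-high cells in every animal.

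FN1, whose product binds ITGA5 and ITGAV integrins, did not pass. It ranged from 3.67 to 34.3 CPM (median 13.3) in OSMR-high and from 0.272 to 16.8 CPM (median 12.0) in OSMR-low sums, higher in OSMR-high cells in 5 of 8 animals. Its log2 fold change was 0.93 ± 0.52 (edgeR adjusted p = 0.389). More cells carried it in the OSMR-high class, 62.1% against 31.9%. Of the 57 cells with the most satellite glia marker RNA 75.4% had FN1, and of the rest 29%. Against ADCYAP1-high cells alone the log2 fold change was 1.81 (edgeR adjusted p = 0.0205), and without the 25% of cells highest in non-neuronal markers it was -0.03 (0.993).

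Of the 47 tested genes that did not pass, those nearest to the threshold, singled out after their values were seen, were COL8A1, a chain of a sheet-forming collagen, at -2.89 ± 0.84 (edgeR adjusted p = 0.0531) and ITGB4 at 1.34 ± 0.42 (0.0753). COL8A1 was lower in OSMR-high cells in 7 of 8 animals, with a median of 0.946 against 9.06 CPM, and single cells supplied 99.6%, 98.1%, 99.3% and 85.6% of it in the OSMR-low sums of animals 1, 2, 7 and 6. ITGB4 was higher in 7 of 8, with a median of 5.17 against 1.62 CPM. DESeq2 called COL8A1 lower and ITGB4 higher. Of 7 fibrillar collagen chains tested, 3 had positive and 4 negative log2 fold changes, from -1.18 to 0.54. Of 5 network and basement membrane collagens, 4 were positive and 1 negative, from -2.89 to 0.82.

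**Figure D4:**
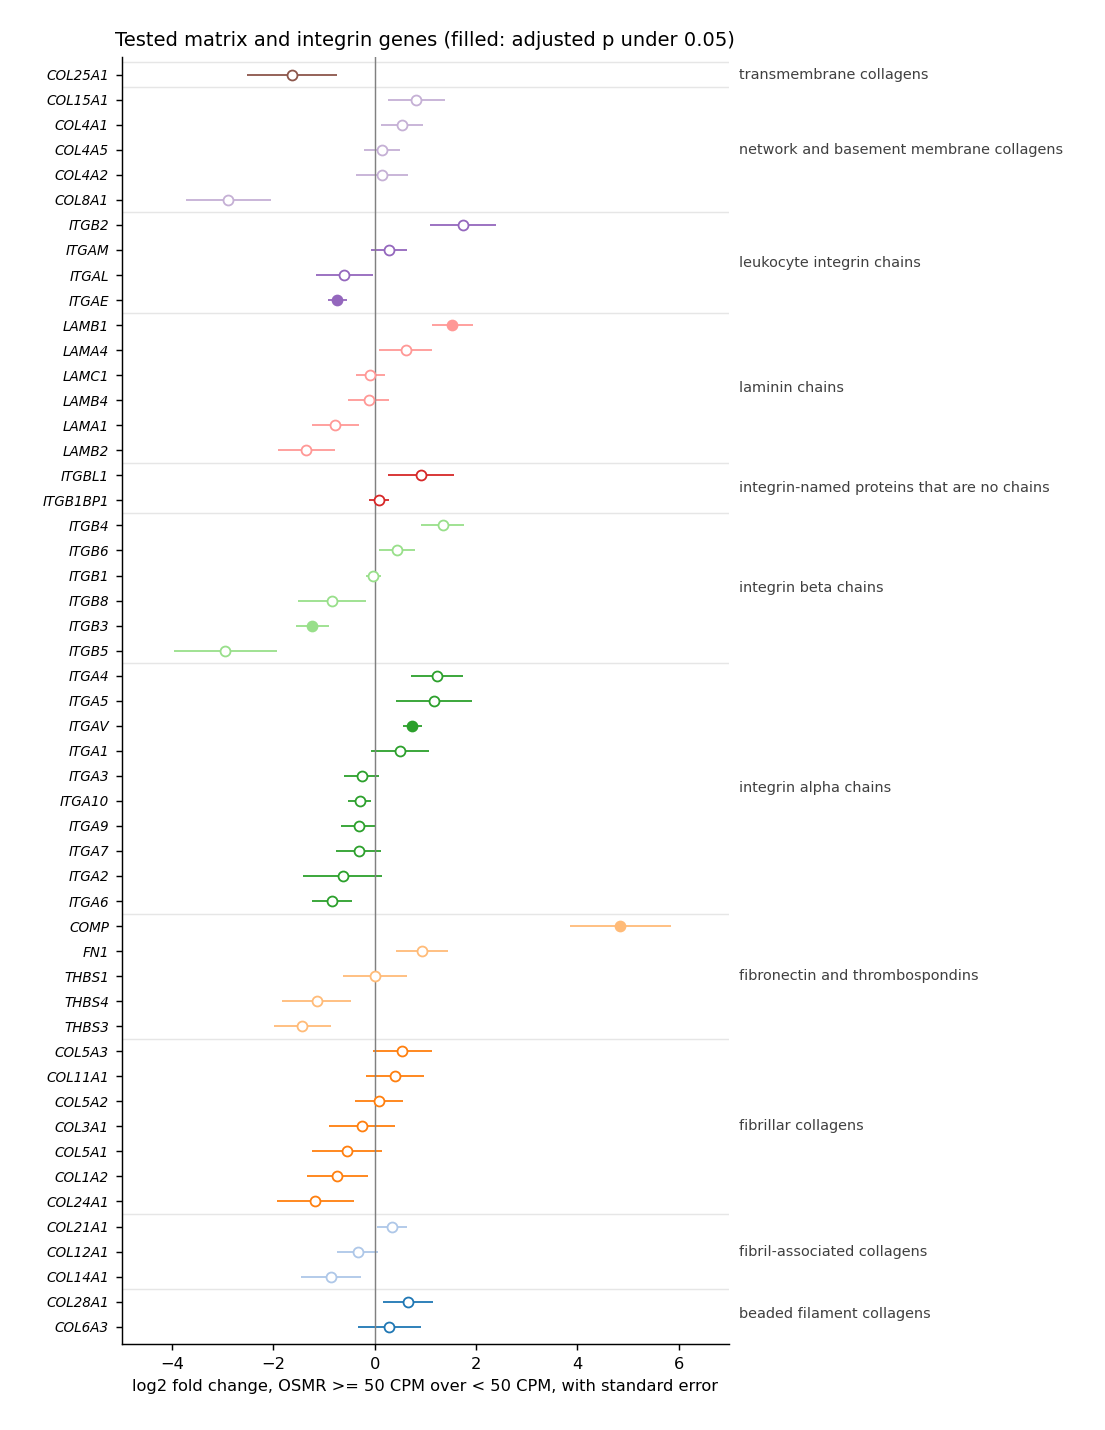
Log2 fold change (OSMR-high over OSMR-low, with the standard error as bars) of the tested genes shown, grouped by role, with filled points for an adjusted p under 0.05. The 5 filled points lie in 5 different role groups, and COMP at 4.85 stands furthest from 0.

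Beside ITGAV and ITGAE, no integrin alpha chain passed. Of the 10 tested outside the leukocyte chains, ITGAV included, 4 had positive and 6 negative log2 fold changes, among them ITGA4, a chain of receptors for fibronectin and VCAM1, at 1.23 ± 0.52 (edgeR adjusted p = 0.217), and ITGA6 at -0.84 ± 0.39 (0.259). The leukocyte chain ITGB2 stood at 1.75 ± 0.65 (0.144), and its partner ITGAM at 0.28 ± 0.35 (0.77). Both chains of this pair were found in 43.9% of OSMR-high and 18.8% of OSMR-low cells. DESeq2 called ITGB2 higher. Of the 57 cells with the most macrophage marker RNA 36.8% carried ITGB2, and of the rest 26.6%, and 0 of 7 tested macrophage genes passed between the classes. Among thrombospondins, secreted proteins that bind CD47 and integrins, THBS1 stood at 0.01 ± 0.63 (0.997), THBS3 at -1.43 ± 0.56 (0.173) and THBS4 at -1.15 ± 0.68 (0.42).

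COMP passed in each of the fits that left out 1 animal (edgeR adjusted p between 0.000604 and 0.0281). It did not pass with OSMR-high set at 10 CPM (4.36, 0.0938), against the few cells low in both OSMR and ADCYAP1 (5.36, 0.357) or without the animal block (2.58, 0.119). The log2 fold change of COMP was 5.54 without animal 1, 3.28 by limma on means of cells and 3.3 with OSMR-high set at 200 CPM. The smaller differences kept their direction with any 1 animal left out, with log2 fold changes from 1.20 to 1.71 for LAMB1, 0.61 to 0.89 for ITGAV, -0.82 to -0.57 for ITGAE and -1.35 to -1.05 for ITGB3. Some calls did not hold: LAMB1 lost its call without animal 2, 4, 6, 7 or 9, ITGAV without animal 1, 2, 5, 7 or 9, ITGAE without animal 2, 4, 6 or 7 and ITGB3 without animal 2, 4, 5 or 10, with adjusted p up to 0.075, 0.0991, 0.0693 and 0.0772. Without the animal block 2 members passed, LAMB1 and COL8A1. Neither ITGAE nor ITGB3 passed without the 25% of cells with the most non-neuronal marker RNA (-0.48 and -1.30, edgeR adjusted p = 0.355 and 0.23) or without the 25% with the lowest totals (-0.83 and -1.18, adjusted p = 0.0854 and 0.0695).

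Other genes of matrix and adhesion were taken from 7 lists. In OSMR-high cells 8 of them were higher and 9 lower, 11.4% of those tested beside 6.30% of all genes. Their median log2 fold change was 0.03. Of 21 tested proteoglycans 1 was higher and 2 were lower. Decorin (DCN), which binds collagen fibrils, was higher at 5.03 ± 0.54 (adjusted p = 3.81e-05), with 11 to 93.7 CPM in OSMR-high and 0.151 to 9.57 CPM in OSMR-low sums, and the ranges did not overlap. Fibromodulin (FMOD), which also binds collagen fibrils, was lower at -7.05 ± 0.91 (adjusted p = 0.00016), with at most 1.69 CPM in OSMR-high sums and 0.34 to 75.9 CPM (median 21.4) in OSMR-low sums, lower in OSMR-high cells in 8 of 8 animals. DCN also stands on the fibroblast marker list, where it was the one of 7 tested genes that passed, and the summed fibroblast markers had medians of 63.5 CPM in OSMR-high and 80.6 CPM in OSMR-low sums.

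Of 13 tested genes for holding or releasing latent TGF-beta, a growth factor stored in matrix and freed by ITGAV integrins, 1 was higher and 1 lower, with a median log2 fold change of -0.16. LTBP1 was lower in OSMR-high cells, -3.24 ± 0.42 (edgeR adjusted p = 0.000163), and LTBP3 higher, 1.79 ± 0.43 (0.0208). LTBP1 had a median of 16.1 CPM in OSMR-high and 147.4 CPM in OSMR-low sums and was lower in OSMR-high cells in all 8 animals.

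Among integrin adaptors, the actin linker vinculin (VCL) was higher, 1.52 ± 0.30 (edgeR adjusted p = 0.00537), and so was the kinase PTK2B, 2.21 ± 0.63 (0.0484). Talin 2 (TLN2), FERMT1 of the kindlins and LIMS1 were lower, at -1.27 ± 0.35 (0.0428), -1.17 ± 0.22 (0.00395) and -0.66 ± 0.17 (0.0245). In all, 2 of 24 adaptors were higher and 3 lower.

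Of 15 matrix receptors that are no integrins, CD47, a thrombospondin receptor, was higher (0.91 ± 0.16, edgeR adjusted p = 0.00269) and so was the proteoglycan receptor PTPRS (1.04 ± 0.27, 0.029), and the hyaluronan receptor CD44 was lower (-1.02 ± 0.27, 0.0344). CD47 ranged from 422.4 to 1034 CPM in OSMR-high and from 219.2 to 508.8 CPM in OSMR-low sums. Netrin 4 (NTN4), which binds laminin, was higher at 2.37 ± 0.39 (0.00136), and the elastic fibre protein FBLN5 lower at -1.50 ± 0.43 (0.0485). The protease inhibitor SERPINE2 was lower at -1.78 ± 0.36 (0.00585), and P4HA1, an enzyme that hydroxylates collagen chains, higher at 0.89 ± 0.21 (0.017).

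Day in culture was compared over 20 sums of an animal and a day, 9 at day 1, 8 at day 2 and 3 at day 3, fitted together. Of 61 members tested, 0 passed in edgeR at day 2 against day 1, where 0% of 20267 genes passed, and 0 at day 3 against day 1, where 0.00493% passed. At an unadjusted p under 0.05 there were 1 and 10 members, beside 3.72% and 12.7% of all 20267 genes. DESeq2 on the same sums called 1 member at day 2 and 6 at day 3 (29 and 713 genes in all). The 3 sums at day 3 come from animals 2, 4 and 7.

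ITGB8, the beta chain that pairs with ITGAV to release active TGF-beta, had the smallest p in both contrasts. At day 1 the sums ranged from 0 to 11.5 CPM (median 3.65), and at day 2 from 2.22 to 42.6 CPM (median 13.2). Each of the 7 animals with both days had the higher value at day 2, with a log2 fold change of 1.59 ± 0.36 (p = 0.000572, edgeR adjusted p = 1.0). Animals 2, 4 and 7 had 3.65, 1.94 and 0.557 CPM at day 1, 10.9, 6.23 and 2.22 CPM at day 2 and 27.8, 10.7 and 12.1 CPM at day 3. In these 3 animals the value was higher at each later day, while the lowest day 3 value lay below the 11.5 CPM of animal 6 at day 1. Some of these values rest on single cells, which supplied 97.6% in animal 2 at day 2, 90.7% in animal 4 at day 3 and 100% in animal 7 at day 1. In the other sums of these animals the top cell supplied 29.7% to 67.6%. A single cell also supplied 98% of the 42.6 CPM of animal 6 at day 2. The day 3 fold change against day 1 was 3.19 ± 0.49 (p = 1.7e-05, edgeR adjusted p = 0.0918, DESeq2 adjusted p = 1.11e-07). DESeq2 also called the day 2 difference, 1.61 with an adjusted p of 0.00505.

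By cell, ITGB8 was found in 33.1% at day 1, 50% at day 2 and 41.7% at day 3, and in 27.5%, 47.8% and 38.1% after thinning. In OSMR-high cells the counts were 7 of 33, 15 of 25 and 2 of 8, and in OSMR-low cells 34 of 91, 24 of 53 and 8 of 16. Within OSMR-low cells alone the log2 fold changes were 1.33 ± 0.77 at day 2 and 2.53 ± 1.00 at day 3. ITGB8 was found in 78.9% of the 57 cells with the most satellite glia marker RNA and in 26.6% of the rest. The summed satellite glia markers had medians of 141.4, 132.5 and 95.3 CPM at days 1, 2 and 3. For the macrophage markers the shares with ITGB8 were 68.4% and 30.2%, and the summed markers had medians of 86.7, 174.5 and 24.3 CPM. Without the 10 cells with at least 1000 CPM of macrophage markers, left out after the data were seen, the ITGB8 difference was 1.5 ± 0.35 at day 2 and 2.95 ± 0.49 at day 3. Without the 25% of cells highest in all non-neuronal markers, the ITGB8 differences were 1.64 ± 0.67 and 2.24 ± 0.92.

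COMP ranged from 4.52 to 62.8 CPM (median 17.4) at day 1 and held 1.97, 2.00 and 21.7 CPM in animals 2, 4 and 7 at day 3. The values overlapped, and each of the 3 animals had less at day 3 than at day 1. The difference from day 1 was -2.63 ± 0.71 on the log2 scale (edgeR adjusted p = 0.23, DESeq2 0.00456). OSMR-high cells made up 26.6% of cells at day 1, 32.1% at day 2 and 33.3% at day 3. Among OSMR-high cells COMP was found in 26 of 33 at day 1, 19 of 25 at day 2 and 5 of 8 at day 3, with medians of 30.7, 45.7 and 4.88 CPM. In OSMR-low cells alone the day 3 difference had the other sign, 1.42 ± 2.00, from 2 of 16 cells with COMP at day 3.

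FN1 ranged from 0.615 to 16.8 CPM (median 7.33) at day 1, and held 22.5, 53.5 and 25 CPM in animals 2, 4 and 7 at day 3. The day 1 and day 3 values did not overlap. FN1 stood at 2.57 ± 0.88 on the log2 scale (edgeR adjusted p = 0.285, DESeq2 0.0369). In animal 4 one cell with 279 CPM supplied 99.7% of the day 3 value. The same cell held 50.8 CPM of ITGB8 and 114.8 CPM of LAMB1, which made up 90.7% and 100% of that animal's day 3 values. The day 3 values of these genes in animal 4 are therefore not independent of each other. Without animal 4 the difference was 1.23 ± 0.84, and by limma on means of cells it was 0.86 ± 0.45. ITGB1 stood at 0.41 ± 0.20 at day 2 (edgeR adjusted p = 1.0) and was at 655, 1271 and 849 CPM in the 3 animals at day 3, within or above the day 1 range of 374 to 772 CPM (0.90 ± 0.27, edgeR adjusted p = 0.249).

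No collagen passed at day 3 in edgeR. COL8A1 ranged from 0.211 to 59.6 CPM (median 7.84) at day 1 and held 0.209, 0.329 and 0.429 CPM in the 3 sums at day 3, with 1 day 1 sum inside the day 3 range. COL8A1 was lower at day 3 in 2 of the 3 animals, and in animal 2 it was higher, 0.329 against 0.211 CPM. In animals 4 and 7 single cells supplied 90.7% and 100% of the day 1 value. The COL8A1 difference was -4.90 ± 1.76 (edgeR adjusted p = 0.292). COL15A1, a collagen of basement membrane zones, ranged from 0.524 to 5.17 CPM (median 2.38) at day 1 and held 1.04, 9.54 and 25.1 CPM at day 3, and stood at 3.26 ± 1.27 (0.32). In animal 4 a single cell with 131.2 CPM supplied all of COL15A1 at day 3. DESeq2 called both. Of the 3 transmembrane collagens tested, all had negative log2 fold changes at day 2 and at day 3, and of 6 integrin beta chains 4 had negative and 2 positive ones at each day.

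**Figure D5:**
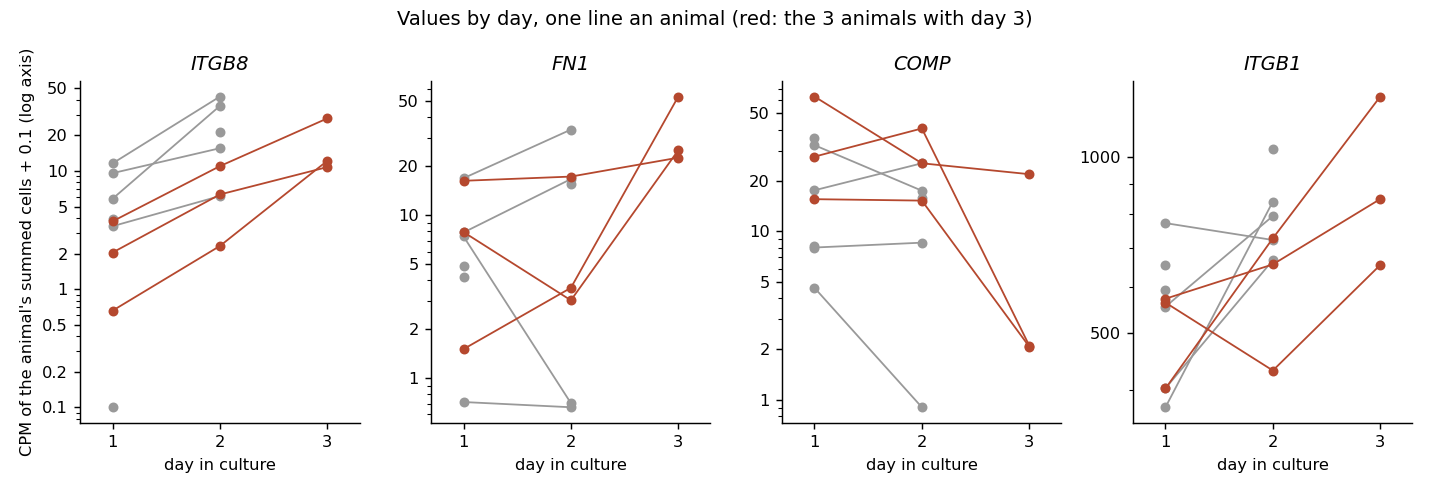
CPM of each animal's summed cells plus 0.1 (log axis) for ITGB8, FN1, COMP and ITGB1 by day in culture; lines join the days of one animal, in red for the 3 animals that reached day 3. ITGB8 is higher at each later day in these 3 animals, and FN1 at day 3 lies above all day 1 values.

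The share of cells with a gene was lower at day 3 than at day 1 for 56 of the 67 genes, and for 48 after thinning. The median share over the 67 genes was 33.1% at day 1, 32.1% at day 2 and 25% at day 3, and over all genes found in at least 10% of cells it was 58.9%, 56.4% and 45.8%. LAMB2, singled out after its values were seen, was found in 41.1% of cells at day 1 and 8.33% at day 3, and ITGA10 in 83.1% and 75%.

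The difference between the OSMR classes was tested for a change from day 1 to day 2. Of 50 members tested, 0 passed in edgeR and 0 in DESeq2, as did 0% of 17544 genes. At an unadjusted p under 0.05 there were 2 members, beside 3.27% of all genes. COL28A1, a collagen known from peripheral nerve and its glia, had the smallest p (0.000413, edgeR adjusted p = 1.0) with an interaction of -4.67 ± 1.16. Its sums had medians of 3.22 CPM in OSMR-high and 1.04 CPM in OSMR-low cells at day 1 and of 0.338 and 4.73 CPM at day 2. It was found in 60.6% of OSMR-high cells at day 1 and 36% at day 2, and in 30.8% and 28.3% of OSMR-low cells. A single OSMR-low cell of animal 7 at day 2 held 461 CPM. COL28A1 was found in 57.9% of the 57 cells with the most satellite glia marker RNA and in 26% of the rest, and the part of glial RNA in the difference was not tested. COL25A1, a transmembrane collagen of neurons, followed at 4.07 ± 1.76 and the laminin-binding chain ITGA7 at -2.33 ± 1.25, both with an edgeR adjusted p of 1.0. For COL25A1, a single OSMR-low cell of animal 2 at day 1 with 1238 CPM supplied 97.4% of that animal's OSMR-low value.

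Age was fitted as a slope per week over the 9 animals with at least 3 cells at day 1. Of 26 members tested, 0 passed in edgeR and 0 in DESeq2, and 0% of 13519 genes passed in edgeR. An unadjusted p under 0.05 was held by 7.06% of all genes and by 1 member. That was COL14A1, a fibril-associated collagen, at 0.20 ± 0.08 on the log2 scale per week (edgeR adjusted p = 0.655), with 0.998 to 8.87 CPM over the animals. LAMC1 followed at 0.12 ± 0.07 (0.762) and COMP at 0.14 ± 0.10 (0.833).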

How the data were processed

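Individual dorsal root ganglion neurons of pigs were sequenced as single-cell Smart-Seq2 libraries, per the labels' protocols. The authors deposited one table of estimated counts per gene and cell, in which 52.1% of values above 0 are not whole. The submitters' processing notes name bcl2fastq 2.20; no source used here names the aligner, counter, genome build or annotation, so no coordinates or sequences are printed. The authors' deposited cell table gave animal, capacitance and the 50 Hz value, deposited as other values with no unit; its age and day matched the titles for all 226 cells, and 43 of its 269 lines belong to no cell used here. No 2 cells held identical counts.

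CPM per cell was computed over all 30420 identifiers. Counts were summed per animal and OSMR class (at least 2 cells) or, for days, per animal with 3 or more cells that day, rounded and fitted with edgeR 4.0.16 (TMM, filterByExpr, quasi-likelihood test, Benjamini-Hochberg over all genes, threshold 0.05) in R 4.3.3, with the animal as a block except for age. CPM of sums are TMM-scaled. Animals, as the cell table names them, pair the sums; deviations from the class means of the 2 classes of an animal correlated between 0.126 and 0.538 over 5537 genes. Alternatives used DESeq2 1.42.0 and limma 3.58.1 on means of log2(CPM + 1).

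On simulated counts for the OSMR comparison (17579 genes), 30.6% of 2-fold and 85.2% of 4-fold changes were recovered; for day 3 (19709 genes) 1.01% and 17.3%; for day 2 (19713 genes) 9.09% and 51.5%; for the class by day interaction (17060 genes) 0% and 6.25%. The simulation had no differences between animals and gave each gene the spread fitted to genes of its level. The shares recovered may therefore not hold for members whose sums rest on single cells. Sums held 1476116 to 52352877 counts in the OSMR fit. Members and lists were chosen with earlier results of these data known. Named genes are ITGB8, COMP and FN1, every called member, and in comparisons with fewer than 3 calls the 3 members of smallest p; of the list genes, the 8 highest and 8 lowest called. One member and one marker are not reported here, in the text or the figures, although the counts include them.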

Additional observations from a re-analysis of the deposited data

Results flagged for a closer look

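Among 24 groups of 8 or 9 animal values of the named genes, 3 held a value whose gap to its neighbour was large for the range of its group; about 1 group in 20 does so by chance. ITGAE in the OSMR-low cells of animal 6 stood at 161.2 CPM, and the next animal at 77.6 CPM; without animal 6 the OSMR class difference was -0.57 with an edgeR adjusted p of 0.0691. ITGB8 in the OSMR-low cells of animal 1 stood at 0 CPM, and the next lowest animal at 2.99 CPM. COMP at day 2 stood at 0.805 CPM in animal 5, and the next lowest animal at 8.46 CPM.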

How the results depend on the processing

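The 52 matrix and integrin genes tested between OSMR classes gave 3 higher and 2 lower with the animal as replicate block. The count of higher genes was 5 by DESeq2, 1 with no replicate block, 1 with an OSMR threshold of 10 CPM, 0 against cells low in ADCYAP1, 1 at day 1 only and 5 without cells near the OSMR threshold, the last chosen after seeing the data. The count of lower genes was 5 by DESeq2, 4 with no filter on low counts, 0 by limma on means of cells, 1 with no replicate block, 0 without the 25% of cells highest in non-neuronal markers, 0 without the 25% with the lowest totals, 0 with a threshold of 10 CPM, 1 with a threshold of 200 CPM, 1 against ADCYAP1-high cells, 0 against cells low in ADCYAP1 and 0 at day 1 only. Leaving out 1 animal at a time gave 1 to 3 higher and 0 to 3 lower. By DESeq2, 1 gene was higher at day 2, and at day 3 3 were higher and 3 lower; over all genes the calls at day 3 numbered 1 in edgeR, 713 in DESeq2, 40 with no replicate block, 3 with no filter and 2 by limma. Over all genes the OSMR calls were 1142, and 1945 by DESeq2, 716 with no replicate block, 334 without the cells highest in non-neuronal markers, 300 with a threshold of 10 CPM, 532 at day 1 only and 2 against cells low in ADCYAP1. DESeq2 size factors moved the median log2 interaction of all genes from -0.08 to 0.06. The number of genes described was 43 with a minimum of 5 CPM and 42 with a share of 25% of cells. Signs changed for ITGAE between OSMR classes against cells low in ADCYAP1 (0.40), and for FN1 without the cells highest in non-neuronal markers (-0.03), against cells low in ADCYAP1 (-0.19) and at day 1 only (-0.32). At day 2 COMP stood at 0.13 by limma, 1.24 without the cells highest in non-neuronal markers and 1.16 in OSMR-low cells. FN1 at day 2 stood at 0.08 by limma, 0.60 with no replicate block and 0.60 with sums of at least 1 cell, and between -0.42 and 0.27 with 1 animal left out (0.27 without animal 5, 0.14 without animal 7). COMP at day 3 stood at 1.42 in OSMR-low cells. The causes were not tested. Over 395 alternatives for single genes, 328 kept direction and side of the threshold, 46 lost a call, 8 gained one and 13 changed sign. Day 3 rests on 3 animals, and low members on few reads.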
